A study of Mus musculus with 12 samples.

Results

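Collagen, extracellular matrix and contractile cytoskeleton genes were described in mouse microglia and regulatory T (Treg) cells. Members were taken by gene symbol: Sparc, Dcn and Mgp, and every symbol that began with Col and a digit, Lama, Lamb, Lamc, Fbln, Fbn, Lox, Thbs, Timp, Adamts, Itga, Itgb, Acta, Actn, Cnn, Tagln, Tpm, Myl or Myh, without Mylip and Mylk. This gave 64 of 2186 genes in the microglia table and 18 of 1284 genes in the Treg table, which are 78 different genes of 3188. Of these, 4 genes (Adamtsl4, Cnn3, Col15a1 and Loxl4) had a row in both tables. The symbols caught Cnnm2, a magnesium transport protein, and Tpmt, an enzyme that methylates thiopurines, which share only a name with calponins and tropomyosins and are counted but not described with them.

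Cultured primary microglia, which are macrophages resident in brain and cord, were sequenced unstimulated as the control (n = 3) or after co-culture with Treg cells (n = 3). Treg cells, a class of T cells that dampens immunity, were isolated at day 14 of spinal cord injury, from the cord itself (n = 3) and from spleen (n = 3). The labels give no strain, sex or age of the mice, no origin of the co-cultured Treg cells and no length of the co-culture. In the microglia table the headers of the authors' fold change and Q value call the numerator "Young", a word that no label uses. It was read as the co-culture, because the sign of the authors' fold change matched co-culture over control in 2186 of 2186 genes, and whether it refers to age is unknown. Whether replicate libraries stem from different mice or dishes is not stated in the labels. The p-values thus rest on library-to-library spread alone, and such spread can have technical sources.

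The unit was FPKM, fragments scaled to transcript length and library size, and sequencing depth is unknown. The authors had deposited only genes that they found changed in these same libraries. The direction of a gene could therefore be read, but passing a test was fixed by that selection, and a gene with no row is not analysed here. FPKM summed over the microglia table lay between 59529 and 61068 in the controls and between 115884 and 117408 in co-culture. The sums over the Treg table were 64893 to 65362 in the spleen and 111243 to 134887 in the spinal cord. Of 22 markers of microglia and macrophages, 11 had a row in the microglia table. Their summed FPKM was 6098 to 6262 in the controls and 11860 to 12040 in co-culture, most of it C1qa, C1qb and C1qc. Of the 11, 6 had higher means in co-culture and 5 lower ones (Cx3cr1, Tmem119, Cd14, Gpr34 and Olfml3). Of 20 T cell and Treg cell markers, 4 had a row in the Treg table, with a summed FPKM of 1250 to 1314 in the spleen and 3109 to 3441 in the spinal cord.

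Fibrillar collagens are the rope-like proteins of connective tissue, type IV collagens and laminins form the sheets of basement membranes, and lysyl oxidases cross-link the fibres. Cells grip this matrix through integrins, pairs of alpha and beta subunits that span the membrane. Inside, smooth muscle actin, tropomyosin, calponin, transgelin and myosin light chains build the contractile apparatus of smooth muscle cells, pericytes and myofibroblasts. In the injured central nervous system fibroblasts and pericytes are known to lay down a collagen-rich scar, while microglia express integrins of leukocytes among others.

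Many contractile genes are known targets of serum response factor, which binds the CArG box. Only exact matches to CCWWWWWWGG, with W for A or T, were searched, so variants with a mismatch were not counted. The promoters of the contractile members that hold this motif are shown here, with the motif in capitals. Their genes were lower in co-culture, and the part of the motif in this was not tested. Each window runs from 250 bases before to 50 bases after the start site (RefSeq, GRCm38.p6), in the direction of the gene. They are chr2:156775214-156775513 on the plus strand for Myl9, chr8:123894726-123895025 on the minus strand for Acta1 and chr10:79988350-79988649 on the plus strand for Cnn2.
Myl9: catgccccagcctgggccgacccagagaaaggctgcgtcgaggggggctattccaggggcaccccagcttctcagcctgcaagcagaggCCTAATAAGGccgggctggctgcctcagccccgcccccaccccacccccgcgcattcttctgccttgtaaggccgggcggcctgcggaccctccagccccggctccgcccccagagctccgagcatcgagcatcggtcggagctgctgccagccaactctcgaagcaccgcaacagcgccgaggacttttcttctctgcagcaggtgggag
Acta1: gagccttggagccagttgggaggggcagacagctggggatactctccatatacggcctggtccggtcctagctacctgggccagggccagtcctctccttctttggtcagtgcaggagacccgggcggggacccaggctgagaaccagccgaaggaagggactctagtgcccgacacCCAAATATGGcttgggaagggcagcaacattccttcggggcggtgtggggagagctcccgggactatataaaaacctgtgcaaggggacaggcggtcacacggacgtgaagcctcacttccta
Cnn2: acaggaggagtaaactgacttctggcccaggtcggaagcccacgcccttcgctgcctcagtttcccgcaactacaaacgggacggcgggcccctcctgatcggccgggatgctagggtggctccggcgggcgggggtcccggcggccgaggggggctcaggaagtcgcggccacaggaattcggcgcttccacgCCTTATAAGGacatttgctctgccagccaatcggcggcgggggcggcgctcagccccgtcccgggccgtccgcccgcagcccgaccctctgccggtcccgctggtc
The motif begins at position -161 in Myl9, -73 in Acta1 and -56 in Cnn2, counted from the start site. A window was found for 46 of the 64 microglia members and for 9 of the 11 contractile ones. The CArG box stood in the windows of 4 members (Acta1, Cnn2, Lama2 and Myl9), that is in 8.33% of their 48 windows, against 1.63% of all 32851 windows of the same length. The other motifs searched, on both strands, were TATAAA (2.08% of members' windows, 13.6% of all), TGANTCA (2.08% and 7.81%), CAGACA (20.8% and 21.0%) and CCAAT (31.2% and 37.4%). Acta2, Cnn1 and Tpm1 had no exact match to the CArG box in their windows and fell as well, with log2 fold changes of -3.71, -3.21 and -1.96. Cnn3 and Myh10, which rose, had none either. None of the 14 Treg members with a window held an exact match. These letters are a description of the windows, chosen after the values were seen, and no match says only that the letters are not in this window.

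Collagens and the contractile genes of smooth muscle were lower in microglia after co-culture with Treg cells, while calponin 3 and, on the FPKM scale as deposited, decorin were higher. Genes were tested with limma on log2(FPKM + 1) where the mean over the 6 libraries reached 1 FPKM, which 42 of the 64 members did. At a Benjamini-Hochberg adjusted p under 0.05, 37 members were lower and 5 higher (Dcn, Cnn3, Itgam, Myh10 and Adamtsl4). With equal totals, that is every library scaled to the same sum over the table, 37 members were lower and 1 (Cnn3) higher, and Dcn missed the threshold (limma adjusted p = 0.0512). Among all 1529 genes tested, 46.6% were called lower and 53.4% higher, so 100% were called. With equal totals 731 of all genes were called lower and 537 higher. After quantile normalization 37 members were called lower and the same 5 higher, against 716 and 724 of all genes. Members fell by up to 3.71 on the log2 scale, and their median log2 fold change was -1.53 against 0.74 for all genes tested. The 22 members under the filter comprised 18 with a lower and 4 with a higher mean in co-culture (Lamc3, Adamts9, Itga1 and Itgb7). Lama2 at 0.868 and Itga1 at 0.742 FPKM lay just under it, and Lama3 at 1.06 and Acta1 at 1.10 FPKM just over it. Lama3 and Acta1 reached it only through the controls, with co-culture means of 0.137 and 0.053 FPKM. So did Col6a3, Col7a1, Fbln5, Col5a3 and Col16a1, with co-culture means from 0.34 to 0.97 FPKM. The filter thus helped to bring these genes into the 37. With no filter 55 of the 64 members were called lower and 9 higher, against 1150 and 1021 of all 2186 genes. The groups of control and co-culture libraries did not overlap in any of the 64 members, as was true of 100% of all genes tested.

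**Figure D1:**
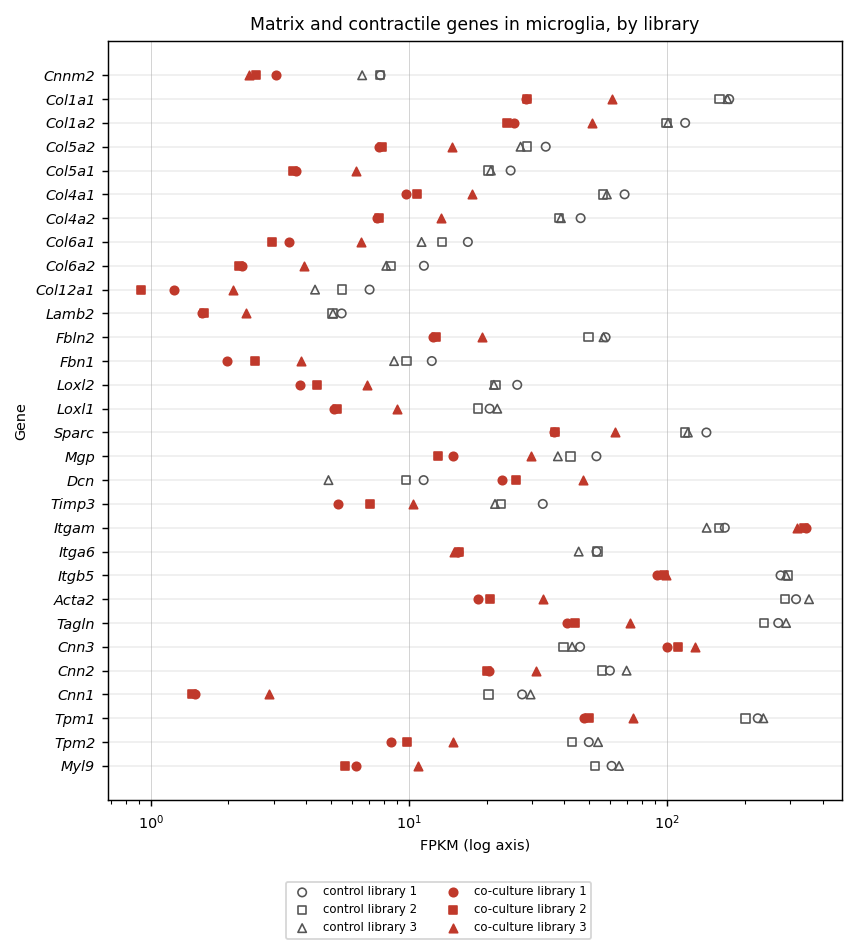
FPKM on a log axis in each of the 6 microglia libraries for the 30 members named by rule (open grey symbols, control; filled red symbols, co-culture; circle, square and triangle, libraries 1, 2 and 3), ordered by role. The filled symbols lie left of the open ones in 27 rows and right of them in Dcn, Itgam and Cnn3, and in most collagen and contractile rows the red triangle (co-culture library 3) lies right of the other red symbols.

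Among fibrillar collagens all 5 tested genes were lower in co-culture, with log2 fold changes from -2.15 to -1.53. Col1a1 (NCBI gene 12842, chromosome 11, 94936224 to 94953042, GRCm38.p6), the main chain of type I collagen, stood at 174, 159 and 171 FPKM in the controls and at 28.5, 28.7 and 61.2 FPKM in co-culture. Co-culture library 3 held more of it than libraries 1 and 2, and all 3 lay under every control. On the log2 scale it fell by 2.15 (SE 0.28, limma adjusted p = 0.000125). Col1a2 (gene 12843, chromosome 6, 4505618 to 4541543), the second chain of type I collagen, was at 117, 99.3 and 101 FPKM and then at 25.6, 24.04 and 51.1 FPKM. Col5a1 and Col5a2, chains of the type V collagen that sets fibril width, fell 4.89-fold and 2.97-fold. Col5a3, another type V chain, fell 5.92-fold from 4.26 ± 1.18 to 0.720 ± 0.288 FPKM (SD, n = 3 each). Col2a1, the collagen of cartilage, and Col27a1 lay under the filter and had lower means in co-culture.

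All 3 tested collagens of basement membranes fell. Col4a1 (gene 12826, chromosome 8, 11198423 to 11312889) stood at 68.4, 56.5 and 58.4 FPKM in the controls and at 9.71, 10.7 and 17.6 FPKM in co-culture, a log2 difference of -2.22 (SE 0.20, limma adjusted p = 1.73e-05). Its partner chain Col4a2 (gene 12827, chromosome 8, 11312805 to 11449287) went from 46.2, 38.2 and 38.8 to 7.53, 7.63 and 13.4 FPKM. The ratio of control to co-culture means was 4.83 for Col4a1 and 4.32 for Col4a2. These genes lie head to head, and their promoter windows overlap by 78 bases. The shared stretch is shown on the plus strand of chr8:11312777-11312854 (RefSeq, GRCm38.p6), with the 22 bases from one listed start site to the other in capitals.
Col4a1 and Col4a2: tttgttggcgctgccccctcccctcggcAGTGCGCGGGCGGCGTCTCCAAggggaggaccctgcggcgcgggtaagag
Col4a5, a chain of type IV collagen in kidney and other basement membranes, fell 3.5-fold. Col15a1, which borders basement membranes, was under the filter and stood at 1.28, 1.36 and 1.15 FPKM in the controls and at 0.15, 0.20 and 0.20 FPKM in co-culture.

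All 7 other tested collagens fell, with log2 fold changes from -1.53 to -0.96. Col6a1 and Col6a2, chains of the beaded filaments of type VI collagen and neighbours on chromosome 10, fell 3.23-fold and 3.35-fold. Col6a1 stood at 16.9, 13.4 and 11.2 FPKM in the controls and at 3.42, 2.94 and 6.52 FPKM in co-culture. Col12a1, a collagen that decorates fibrils, was at 7.04, 5.51 and 4.33 FPKM and then at 1.23, 0.92 and 2.08 FPKM. Col8a1, Col16a1, Col7a1 and Col6a3 fell as well, 2.38-fold to 5.50-fold. Col14a1 and Col8a2 lay under the filter with lower means in co-culture. Summed over the 20 collagens with a row, FPKM was 532, 456 and 463 in the controls and 95.9, 95.2 and 187 in co-culture.

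Both tested laminins fell. Lamb2, the beta-2 chain, went from 5.21 ± 0.246 to 1.84 ± 0.425 FPKM. Lama3, a chain of epithelial laminin, was at 2.01, 2.06 and 1.91 FPKM in the controls and at 0.14, 0.17 and 0.10 FPKM in co-culture. Of the laminins under the filter, Lama2 and Lama5 had lower means in co-culture and Lamc3 a higher one, at 0.12, 0.10 and 0.11 against 0.25, 0.21 and 0.29 FPKM. All 3 tested fibulins and fibrillins of elastic fibres fell. Fbln2 stood at 57.7, 49.5 and 56.7 FPKM in the controls and at 12.3, 12.7 and 19.2 FPKM in co-culture. Fbn1, the fibrillin of microfibrils, fell 3.70-fold and Fbln5, which helps to assemble elastic fibres, 4.80-fold, while Fbn2 was under the filter.

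The cross-linking enzymes Loxl2 and Loxl1, relatives of lysyl oxidase, fell. Loxl2 was at 26.3, 21.7 and 21.3 FPKM in the controls and at 3.8, 4.42 and 6.86 FPKM in co-culture, a 4.59-fold difference of means. Loxl1 went from 20.3 ± 1.76 to 6.48 ± 2.21 FPKM. Loxl4 lay under the filter, at 0.69, 0.56 and 0.57 FPKM and at 0.08, 0.25 and 0.19 FPKM.

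Small matrix proteins divided. Sparc, a collagen-binding glycoprotein, stood at 142, 117 and 120.2 FPKM in the controls and at 36.4, 36.7 and 63.1 FPKM in co-culture. Mgp, which inhibits calcification, was at 53.2, 42.2 and 37.7 FPKM and then at 14.9, 12.98 and 29.7 FPKM. The Mgp groups did not overlap, and co-culture library 3 came closest to the controls. Dcn (gene 13179, chromosome 10, 97479500 to 97518163), decorin, a proteoglycan that coats collagen fibrils, moved the other way. It stood at 11.4, 9.73 and 4.88 FPKM in the controls and at 22.9, 26.0 and 47.2 FPKM in co-culture, a log2 difference of 1.77 (SE 0.35, limma adjusted p = 0.00149). With equal totals the value was 0.88. Thbs3, a thrombospondin, lay under the filter with a lower mean in co-culture.

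Of the tested TIMP, ADAMTS and ADAMTS-like members, Timp3 and Adamts10 fell and Adamtsl4 rose. Timp3, the matrix-bound inhibitor of metalloproteinases, stood at 33.0, 22.7 and 21.5 FPKM in the controls and at 5.32, 7.07 and 10.4 FPKM in co-culture. Adamts10, a secreted protease linked to microfibrils, fell 2.65-fold. Adamts2, Adamts6 and Adamts12 lay under the filter with lower means in co-culture, and Adamts9 with a higher one, at 0.06, 0.07 and 0.06 FPKM against 0.17, 0.09 and 0.13 FPKM. Of the ADAMTS-like proteins, which lack the protease part, Adamtsl4 rose from 1.78 ± 0.365 to 3.94 ± 0.0987 FPKM. With equal totals its log2 fold change was 0.15 in place of 0.84 and was not called (limma adjusted p = 0.246). Adamtsl1 and Adamtsl3 were under the filter with lower means.

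Of the 3 tested integrins Itgb5 and Itga6 fell and Itgam rose. Itgb5 (gene 16419, chromosome 16, 33829665 to 33949338), the beta chain that pairs with alpha V to bind vitronectin, was at 275, 294 and 288 FPKM in the controls and at 91.6, 97.2 and 99.3 FPKM in co-culture. The log2 difference was -1.56 (SE 0.05, limma adjusted p = 5.73e-08), and the 3 co-culture libraries were close together. Itga6, an alpha chain of laminin receptors, stood at 53.3, 53.8 and 45.4 FPKM and at 15.4, 15.6 and 14.9 FPKM. Itgam (gene 16409, chromosome 7, 128062640 to 128118491), the CD11b chain of complement receptor 3 on myeloid cells, rose from 167, 158 and 142 to 346, 338 and 319 FPKM. Its log2 fold change of 1.10 (SE 0.07) was 0.14 with equal totals, where it was not called (limma adjusted p = 0.101), and another annotated gene on the same strand shares 70.0% of its exon bases. The 4 other integrins were under the filter. Itga8 and Itga11, alpha chains found on contractile cells and fibroblasts, had lower means in co-culture, and Itga1, a collagen receptor chain, had a higher one.

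Itgb7, the beta chain of the gut homing receptor of lymphocytes, was at 0.02, 0.09 and 0.11 FPKM in the controls and at 0.72, 0.63 and 0.77 FPKM in co-culture. Of 20 T cell markers 5 had a row, with a summed FPKM of 11.98 to 13.04 in the controls and 3.36 to 3.76 in co-culture. Lck, Ikzf2 and Cd8b1 of these had higher means in co-culture and Cd28 and Cd5 lower ones. Cd5 was listed at 0 in co-culture library 3. Cd28 made up most of the summed FPKM in the controls, at 11.98, 11.51 and 10.88 FPKM. In co-culture Cd28 stood at 1.5, 1.36 and 1.33 FPKM, so the fall of the sum was carried by this gene. Lck stood at 0.17, 0.19 and 0.38 FPKM and then at 0.54, 0.47 and 0.66 FPKM. The part of Treg cell RNA in Itgb7 was not tested.

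The contractile genes held the largest falls among the members tested. Acta2 (gene 11475, chromosome 19, 34240336 to 34255585), the actin of smooth muscle, was at 315, 286 and 354 FPKM in the controls and at 18.5, 20.6 and 33.0 FPKM in co-culture. Even the highest co-culture library lay far under the lowest control, and the means differed 13.2-fold (limma adjusted p = 9.69e-07). Acta1, the actin of skeletal muscle with the CArG box shown above, stood at 1.65, 1.95 and 2.84 FPKM and at 0.07, 0.03 and 0.06 FPKM. Actins are nearly identical in their coding parts, and the handling of reads that fit several actins is not given in the sources consulted.

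Cnn1 (gene 12797, chromosome 9, 22099221 to 22109221), calponin 1 of smooth muscle, went from 27.4, 20.3 and 29.6 FPKM to 1.49, 1.45 and 2.86 FPKM. The log2 difference was -3.21 (SE 0.21, limma adjusted p = 2.70e-06). Cnn2, a calponin also found outside muscle and one of the genes with a CArG box, was at 60.0, 55.9 and 69.6 FPKM and at 20.4, 20.1 and 31.2 FPKM. Cnn3 (gene 71994, chromosome 3, 121426541 to 121458205), the acidic calponin of non-muscle cells, rose instead, from 46.0, 39.6 and 42.9 FPKM to 100.1, 109.8 and 128 FPKM. The log2 difference of 1.37 (SE 0.10) was 0.43 with equal totals and stayed called (limma adjusted p = 0.00418). The calponin family was therefore called lower in Cnn1 and Cnn2 and higher in Cnn3 under both scalings.

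Tagln (gene 21345, chromosome 9, 45929628 to 45936058), transgelin, an actin-binding protein of smooth muscle, was at 269, 237 and 289 FPKM in the controls and at 40.8, 43.8 and 71.6 FPKM in co-culture. An antisense gene overlaps 55.0% of its exon bases in GENCODE vM21, and use of strand in counting is not given in the sources consulted. Tpm1 and Tpm2, tropomyosins that wind along actin, fell 3.86-fold and 4.42-fold, Tpm1 from 224, 201 and 236 to 47.8, 49.9 and 73.6 FPKM. Myl9 (gene 98932, chromosome 2, 156775408 to 156781657), the regulatory myosin light chain of smooth muscle whose promoter is shown above, stood at 60.9, 52.6 and 65.1 FPKM and at 6.24, 5.65 and 10.8 FPKM. Myh11, the smooth muscle myosin heavy chain, lay under the filter, at 0.19, 0.16 and 0.12 FPKM and at 0.04, 0.04 and 0.03 FPKM. Myh10, a heavy chain of non-muscle myosin, rose 2.06-fold to 14.9 ± 0.664 FPKM, but its log2 fold change of 0.95 was 0.08 with equal totals and was not called (limma adjusted p = 0.447).

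**Figure D2:**
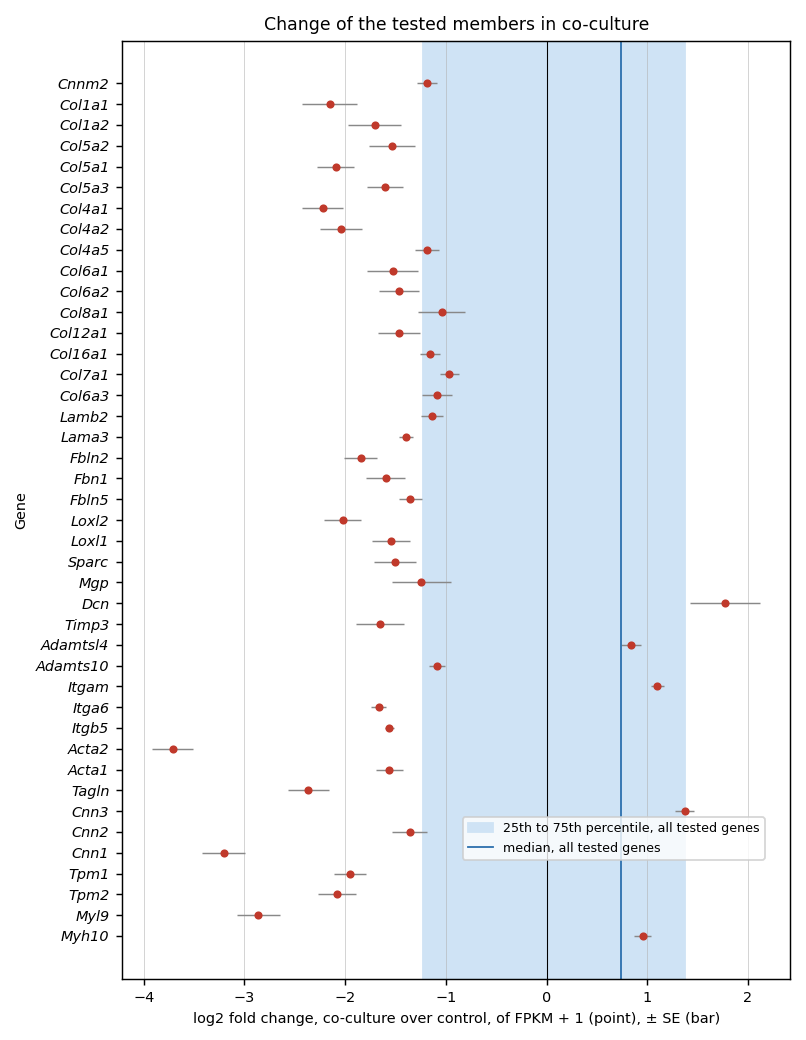
Log2 fold change of FPKM + 1, co-culture over control, for the 42 tested members (point) with its limma SE (bar), ordered by role. The shaded band spans the 25th to 75th percentile of all 1529 genes tested (-1.22 to 1.37) and the blue line is their median. Acta2, Cnn1 and Myl9 lie farthest left, and the 5 members right of 0 are Dcn, Adamtsl4, Itgam, Cnn3 and Myh10.

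The members did not vary alike among the co-culture libraries. Co-culture library 3 was the highest of the 3 in 32 of the 37 members that fell, or 86.5%, against 58.4% of all 712 genes that fell and 28.5% of the 817 that rose. Its FPKM was a median of 1.68 times the mean of libraries 1 and 2 over the members that fell, and 1.11 times over all genes that fell. The ratio was 2.14 for Col1a1 and Mgp, 2.06 for Col1a2, 1.95 for Cnn1 and 1.68 for Acta2, and it ranged from 1.21 to 2.14 over the 15 tested collagens. Dcn, which rose, had a ratio of 1.93. By contrast it was 1.05 for Itgb5, 0.96 for Itga6, 0.93 for Itgam, 0.96 for Myh10 and 0.65 for Lama3. A line at 1.3, drawn after the values were seen, left 30 of the 37 members that fell above it. Over all genes that fell the 75th percentile of the ratio was 1.47, also above the line. Without co-culture library 3 the fall of Col1a1 was -2.51 on the log2 scale and that of Acta2 -3.95, and 37 members were called lower. Among the controls, library 1 was the highest in 24 of the 37 members that fell and in 37.8% of all genes that fell.

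**Figure D3:**
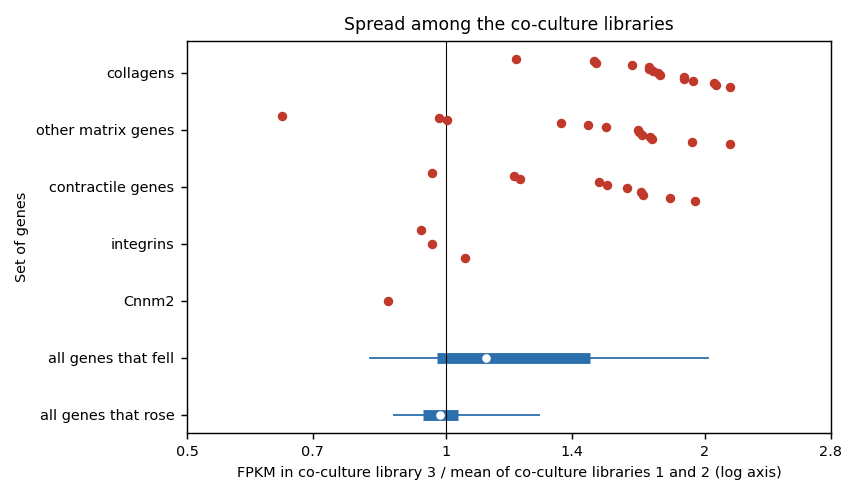
FPKM in co-culture library 3 over the mean of co-culture libraries 1 and 2, on a log axis, for each tested member (red points) by group and for all genes that fell or rose (white point, median; thick bar, 25th to 75th percentile; thin line, 5th to 95th percentile). Most collagens, other matrix genes and contractile genes lie above 1.3, while the 3 integrins and Cnnm2 lie between 0.86 and 1.05.

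Most markers of matrix-forming cells with a row had lower means in co-culture, as most members did. Of 24 fibroblast markers 9 had a row, and 3 of these (Col1a1, Col1a2 and Dcn) are members. The other 6 (Mfap5, Thy1, Twist2, Ogn, Foxc1 and Foxd1) all had lower means in co-culture, with a summed FPKM of 43.8, 34.2 and 55.3 in the controls and 13.6, 10.6 and 22.7 in co-culture. Of 17 pericyte and smooth muscle markers 10 had a row, 4 of them members (Acta2, Cnn1, Tagln and Myh11). Pdgfrb, Cspg4, Mcam, Lmod1 and Des of the rest had lower means in co-culture, Des being listed at 0 in library 2, while Anpep, which myeloid cells also carry, was higher. Anpep stood at 142, 144 and 140.1 FPKM in the controls and at 422, 430.2 and 413 FPKM in co-culture. Pdgfrb, the receptor that marks pericytes, stood at 3.16, 2.94 and 2.95 FPKM and then at 0.58, 0.47 and 0.81 FPKM. The summed FPKM of the whole list was 708 to 836 in the controls and 486 to 525 in co-culture. Anpep made up most of the latter. Without the 4 members the sum was 164.4, 164.7 and 163.7 in the controls and 425.3, 433.5 and 417.1 in co-culture, most of it Anpep. In these bulk libraries fewer cells of a type and less RNA per cell cannot be told apart, and the part of fibroblasts or pericytes in the culture was not tested. The 2 astrocyte markers with a row had lower means in co-culture and the 4 endothelial ones higher, while 3 oligodendrocyte markers and 5 platelet markers were mixed and 1 neutrophil marker (Lcn2) was higher.

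The same direction was seen in many genes of matrix and contraction outside the chosen symbols, from lists of 42, 51, 80 and 31 genes. Of 12 tested matrix genes 10 were lower and 2 higher in co-culture, and of 18 tested genes of actin, adhesion and sarcomere 17 were lower and 1 higher. Of 20 tested enzymes that make or cut matrix 12 were lower and 8 higher, and of 8 tested TGF-beta genes 6 were lower and 2 higher. The percentages called lower and higher among all genes were 46.6% and 53.4%. Actg2, the enteric smooth muscle actin, fell from 90.4, 85.5 and 82.6 FPKM to 7.75, 6.37 and 14.6 FPKM. Fhl1, a LIM protein of muscle, fell 6.80-fold. Tgm2, the transglutaminase that cross-links matrix proteins, rose instead from 79.3, 60.8 and 67.1 FPKM to 1402, 1510 and 1416 FPKM. Mmp13, a collagenase, rose 25.4-fold to 101 ± 7.62 FPKM and Mmp25, a membrane-bound metalloproteinase, 55.4-fold. Tgfbi, a TGF-beta-induced matrix protein, rose from 24.5, 19.7 and 22.2 FPKM to 237, 238 and 223 FPKM.

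In Treg cells of the injured cord the protease inhibitor Timp1, thrombospondin 1 and integrin chains were higher than in the spleen. Of the 18 members 10 were tested and all 10 were called higher in the spinal cord, where 61.0% of all 1072 genes tested were called higher, 38.6% lower and 99.6% either way. Their median log2 fold change was 1.43 against 0.95 for all genes tested. With equal totals 6 of the 10 stayed called higher, and over all genes 266 were called higher and 414 lower. Of the 8 under the filter 5 had a higher and 3 a lower mean in the spinal cord. Lamb3 at 0.950 and Col15a1 at 0.742 FPKM lay just under the filter, and Adamtsl4 at 1.03 and Itgb3 at 1.91 FPKM just over it. Adamtsl4 and Itgb3 reached it only through the spinal cord libraries, with spleen means of 0.067 and 0.033 FPKM, so the filter helped to make the 10 of 10. With no filter 12 of the 18 members were called higher and 2 lower, against 748 and 450 of all 1284 genes. The member median was then 1.11 against 0.90 for all genes. The spleen and spinal cord libraries did not overlap in 9 of the 10 tested members, against 97.6% of all genes tested, and Actn1 was the exception.

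Timp1 (gene 21857, chromosome X, 20870166 to 20874737), the secreted inhibitor of metalloproteinases, stood at 3.10, 6.61 and 6.5 FPKM in spleen libraries against 129, 291 and 149 FPKM in cord libraries. Cord library 2 held the most, and every spinal cord library was far above the spleen. The log2 difference was 4.85 (SE 0.32, limma adjusted p = 2.89e-07), and it was 4.0 with equal totals. Of 22 microglia and macrophage markers 7 had a row. Their summed FPKM was 27.9 to 36.9 in the spleen and 81.8 to 99.1 in the spinal cord. Of the 7, 6 had higher means in the spinal cord, while Fcrls was listed at 0 there. The 2 neutrophil markers with a row (S100a8 and Mmp8) summed to 4.22 to 9.77 FPKM in the spleen and 28.4 to 83.0 FPKM in the spinal cord. The 3 endothelial markers with a row (Pecam1, Kdr and Ly6c1) summed to 39.4 to 44.4 and 163 to 410 FPKM. Ly6c1 made up most of both sums, with means of 34.58 FPKM in the spleen and 298.7 FPKM in the spinal cord. The Pecam1 groups overlapped, and Kdr was listed above 0 only in spinal cord library 2, at 0.67 FPKM. The part of macrophages, neutrophils or endothelial cells in Timp1 was not tested.

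Thbs1, thrombospondin 1, which activates latent TGF-beta, was at 1.83, 0.55 and 0.64 FPKM in spleen libraries against 7.03, 8.53 and 3.03 FPKM in cord libraries. Lamb3, a laminin beta chain of epithelial basement membranes, was listed at 0 in all 3 spleen libraries and stood at 1.26, 2.53 and 1.91 FPKM in cord libraries. Adamtsl4 was at 0.13, 0.04 and 0.03 FPKM in spleen libraries against 2.01, 0.24 and 3.71 FPKM in cord libraries, where library 2 was far below the others. Its log2 fold change of 1.29 was 0.63 after quantile normalization and was not called (limma adjusted p = 0.147). With equal totals it was 1.06 and stayed called (limma adjusted p = 0.0221). Adamts14 was listed at 0 in all spleen libraries and in spinal cord library 2.

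All 5 integrins with a row had higher means in the spinal cord. Itga3, an alpha chain of laminin receptors, stood at 0.69, 0.40 and 2.42 FPKM in spleen libraries against 6.01, 6.90 and 4.03 FPKM in cord libraries. The cord was higher by 1.70 on the log2 scale (SE 0.37, limma adjusted p = 0.00108). Itgb3, the beta chain of the vitronectin and fibrinogen receptors, was listed at 0, 0 and 0.10 FPKM and stood at 5.18, 3.35 and 2.84 FPKM in cord libraries. Itga2b, its partner on platelets, was listed at 0 in all spleen libraries and at 1.21, 0 and 0.28 FPKM in cord libraries. Of 10 platelet markers 2 had a row, Itga2b and Pf4, and Pf4, listed at 0 in every spleen library, reached 3.60, 3.21 and 2.14 FPKM in cord libraries. The part of platelets in Itgb3 and Itga2b was not tested. Itga7 was at 0, 0 and 0.01 FPKM and then at 2.37, 1.13 and 0.54 FPKM. Itga4, the alpha 4 chain of the receptor for VCAM1, stood at 0.37, 0.08 and 0.13 FPKM and at 1.06, 0.84 and 0.74 FPKM, under the filter.

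The contractile members of Treg cells were of the non-muscle kind. Myl12b, a regulatory light chain of non-muscle myosin and the member with the highest level, was at 298, 329 and 289 FPKM in spleen libraries against 542, 614 and 586 FPKM in cord libraries. Its log2 fold change of 0.93 (SE 0.13) was -0.0076 with equal totals. After quantile normalization it was 0.12, and neither value was called. Its exons overlap those of the near-identical gene Myl12a over 462 bases in GENCODE vM21. Actn1, alpha-actinin 1, which cross-links actin, stood at 4.98, 5.43 and 5.43 FPKM in spleen libraries against 13.4, 14.0 and 5.09 FPKM in cord libraries. Spinal cord library 3 lay within the spleen values, and the log2 difference of 0.80 (SE 0.36, limma adjusted p = 0.0453) was -0.015 with equal totals, 0.57 without spinal cord library 2 and 1.22 without library 3. Cnn3 was at 25.04, 24.1 and 32.3 FPKM and at 76.0, 44.4 and 57.3 FPKM, a call that ended with equal totals (log2 fold change 0.16, limma adjusted p = 0.643).

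The 3 members with lower means in the spinal cord all lay under the filter. Col15a1 was at 1.02, 2.34 and 0.71 FPKM in spleen libraries against 0.14, 0.13 and 0.11 FPKM in cord libraries. Adamts3 stood at 0.46, 0.24 and 0.34 FPKM and was listed at 0 in every spinal cord library. Loxl4 was at 0, 0.01 and 1.02 FPKM in the spleen, so that a single library carried it, and was listed at 0 in the spinal cord. In the microglia table Col15a1 and Loxl4 had lower means, and Cnn3 and Adamtsl4 higher means, in co-culture. No library is shared between the tables, which were normalized separately, and the difference between the comparisons was not tested.

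**Figure D4:**
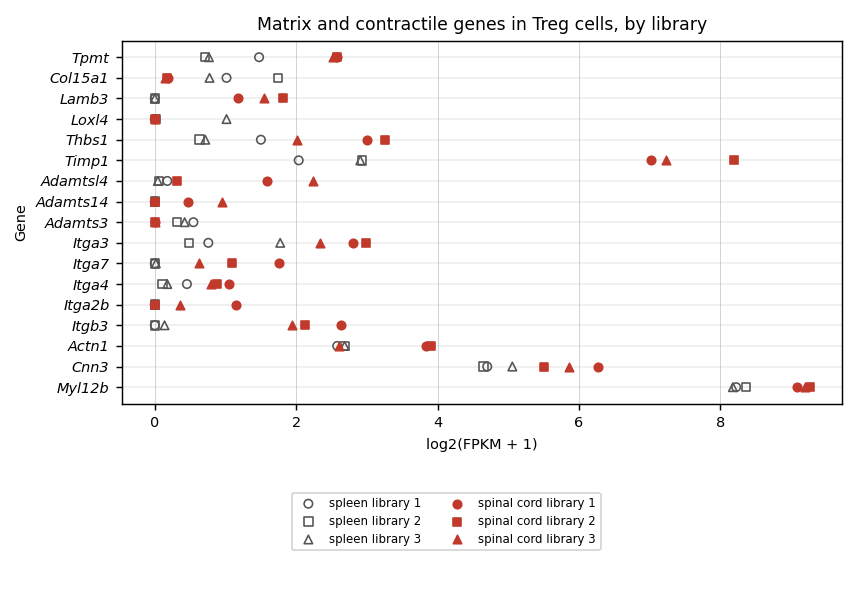
Log2(FPKM + 1) in each of the 6 Treg libraries for the Treg members reported here (open grey symbols, spleen; filled red symbols, spinal cord; circle, square and triangle, libraries 1, 2 and 3). Timp1 shows the widest gap, Actn1 is the tested member whose groups overlap, and Col15a1, Loxl4 and Adamts3 are the rows where the spleen is higher.

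From the same lists of genes outside the chosen symbols, all 4 tested matrix genes and all 5 tested matrix enzymes were higher in the spinal cord, as were 4 of 5 tested contractile genes and 2 of 3 tested TGF-beta genes. Among all genes tested 61.0% were called higher. Ccn4, a matricellular growth regulator, stood at 1.46, 0.97 and 0.58 FPKM in spleen libraries against 33.7, 36.0 and 31.8 FPKM in cord libraries. Ecm1, an extracellular matrix glycoprotein also made by T cells, rose 4.80-fold to 162 ± 24.3 FPKM. Plaur, the urokinase receptor, rose from 8.05 ± 2.10 to 281 ± 22.6 FPKM. Rhoc, a small GTPase that drives actomyosin contraction, rose 7.81-fold, and Igfbp7 and Adam8 rose 4.66-fold and 4.99-fold. Of the markers of matrix-forming cells, Pdgfrb was listed at 0 in all spleen libraries and in spinal cord libraries 1 and 2, and stood at 0.60 FPKM in library 3. Cnp of the oligodendrocyte list was higher in the cord and Atp1b2 of the astrocyte list was listed at 0 there. The fibroblast list had 3 genes with a row in the Treg table (Gsn, Thy1 and Crabp2), all with higher means in the spinal cord. The Thy1 groups overlapped, and T cells of mice also carry Thy1.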

How the data were processed

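Expression came as the authors' deposited FPKM, named so in the file headers and given to 2 decimals, with one table per comparison and 6 libraries in each. Each table also held the authors' deposited log2 fold change and Q value per gene. Only changed genes were listed: the smallest absolute log2 fold change was 1.0006 and the largest Q value 0.0498. The submitters' processing notes name RSEM 1.3.1, Bowtie2, DESeq2 1.4.5 and GRCm38.p6, but not what each did. Libraries were made from poly(A) RNA captured on oligo(dT), per the labels' protocols. Read numbers could not be recovered from the rounded values, so depth and counting error are unknown.

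Each table was fitted separately, as log2(FPKM + 1) with a pseudocount of 1, for genes with a mean of at least 1 FPKM. The test was limma 3.58.1 in R 4.3.3 (eBayes with trend), with Benjamini-Hochberg adjustment over all genes kept, and it was tested on simulated data. Fold changes on this scale understate changes of low genes, and ratios are of mean FPKM. Python 3.11.15 with pandas 2.3.3 and matplotlib 3.10.9 did the rest. Coordinates are RefSeq's (GRCm38.p6), matched by NCBI gene ID for all 64 and 18 members. Values per library are given for up to 30 members per table with the largest absolute log2 fold change and at least 5 FPKM in the higher group, for members in both tables, and for members added after their values were seen. Of the other lists, the 6 genes with the largest absolute log2 fold change per table and at least 5 FPKM were named, and markers are given by list. The members and lists were chosen with earlier results of these data known. Equal totals, quantile normalization, other filters and pseudocounts, a shift to the authors' scale, a fit without trend, a replicate block and leaving out each library were tried. One Treg member is included in the counts and is otherwise not reported here.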

Additional observations from a re-analysis of the deposited data

How the results depend on the processing

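Among microglia members 37 were called lower in the fit reported, and between 34 and 38 when each library was left out. Those fits tested 39 to 43 members, since the filter was applied anew, and every member tested was called. The 5 called higher were 9 with no filter on low values, where all 64 members were tested, and 1 (Cnn3) with equal totals, and stayed 5 when each library was left out. They also stayed 5 after quantile normalization and on the authors' scale. Of the Treg members 10 were called higher in the fit reported, and 4 of 4 with a mean of at least 5 FPKM. With equal totals 6 were called higher, as were 6 after quantile normalization. When each library was left out, 9 to 11 were tested and 8 to 10 called higher. None was called lower with limma as reported or with any library left out, and 2 (Adamts3 and Col15a1) were with no filter. Directions reversed for Myl12b (-0.0076) and Actn1 (-0.015) with equal totals. Equal totals moved single genes by a median of -0.83 in microglia and -0.85 in Treg cells, quantile normalization by -0.24 and -0.37, and the authors' scale by 0.19 and 0.11. Both rest on the changed genes alone. The labels do not say what libraries with the same replicate number share. Libraries of opposite groups were correlated over the genes tested, on log2(FPKM + 1) after each gene's group mean was subtracted. So computed, correlations of same-numbered libraries were -0.041, 0.149 and 0.175 in microglia and -0.003, -0.041 and -0.053 in Treg cells. Those of differently numbered libraries ran from -0.292 to 0.271 and from -0.014 to 0.056. With 3 libraries per group these values cannot tell whether the numbers pair the samples. With the replicate block 5 microglia members were called higher and 37 lower, and 9 Treg members higher and 0 lower. The one lost was Actn1 (limma adjusted p = 0.052), which was also lost in 5 of 6 fits that left out a library. The causes of these changes were not tested.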
